A study of Mus musculus with 18 samples.

Results

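The B cell precursor genes described here were Rag1, Rag2, Dntt, Vpreb1, Vpreb2, Igll1, Vpreb3, Ebf1 and Cd93, which are 9 of the 49585 gene rows of the count table. They were chosen from their measured levels in these same libraries, among them the high Rag1 level of joint nonmigrated cells. Their levels and fold changes are therefore given as a description. Calls of the members from fits of all genes are counted further on, but are not read as tests of the members. The libraries are bulk RNA-Seq of CD45+ Kaede red+ leukocytes from Kaede-transgenic mice, which express a protein that UV light turns irreversibly from green to red, so that red cells mark what was in the lit tissue. There are 18 libraries in 6 groups of 3, and each library of the 4 inflamed groups came from a pool of 8 to 18 male and female mice aged 6 to 10 weeks. Pool size and age are not given for the steady-state libraries in the sources used here.

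Inflamed mice had received in vitro polarized OT-II Th1 cells, an immunization with ovalbumin in CFA, and a challenge with 100 µg heat-aggregated ovalbumin (HAO) in the footpad (joint) or the ear pinna (skin). Tissue was photoconverted on day 3, and cells were harvested 24 hours later from the tissue (nonmigrated) or the draining LN (migrated). The other 2 groups are labelled as cells that had reached the joint-draining or skin-draining LN at steady state. The labels do not say which of the transfer and immunization steps the steady-state mice had received, and their titles differ, with PBS on the joint side and Naive on the skin side. The joint-side titles also carry the letters KG, which the labels do not explain, so whether these cells were sorted as Kaede red+ is not settled by them. All groups carry the Kaede transgene, and there is no steady-state tissue group among them. The paper describes the inflamed skin libraries as a second data set. Site and data set therefore cannot be told apart where inflamed joint and skin are compared. In bulk samples, fewer cells of a type and less RNA per cell cannot be told apart.

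A developing B cell first cuts and rejoins its immunoglobulin gene segments with the RAG recombinase, while terminal transferase adds bases at the joins. The new heavy chain is then displayed with a surrogate light chain as the pre-B cell receptor, and the transcription factor EBF1 commits the cell to the lineage. These steps take place in bone marrow in the adult mouse, and mature B cells in LNs have mostly silenced RAG, terminal transferase and the surrogate light chain.

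Sequences are shown first where they bear on how the values can be read. Vpreb1 (chr16:16868403-16870843, minus strand) and Vpreb2 (chr16:17980428-17981273, plus strand; both mm10) encode near-identical parts of the surrogate light chain. Their coding sequences in GENCODE release M21 have 426 bases each and differ at 9, an identity of 97.9%. Of all 100-base windows in Vpreb1 transcripts 7.75% also occur in Vpreb2 transcripts, as do 14.7% of those in Vpreb2, whereas the other 7 genes share no such window with another member. Reads from the shared stretches may have been left uncounted or given to the wrong copy, so the split between these genes is uncertain. The stretch below, coding bases 268 to 387, holds 6 of the 9 differences, which are in capitals.
Vpreb1: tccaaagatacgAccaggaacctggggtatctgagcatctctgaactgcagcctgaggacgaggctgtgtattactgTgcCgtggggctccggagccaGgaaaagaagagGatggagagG
Vpreb2: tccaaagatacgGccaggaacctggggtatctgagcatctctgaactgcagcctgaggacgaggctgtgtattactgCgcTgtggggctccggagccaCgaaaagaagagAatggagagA

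Promoters of 3 members that were high together in joint nonmigrated cells are shown next, as the 250 bases before the RefSeq start site (GRCm38.p6, the patch release of mm10), with the E box CAGGTG or its reverse complement CACCTG in capitals.
Vpreb1, chr16:16869256-16869505, minus strand: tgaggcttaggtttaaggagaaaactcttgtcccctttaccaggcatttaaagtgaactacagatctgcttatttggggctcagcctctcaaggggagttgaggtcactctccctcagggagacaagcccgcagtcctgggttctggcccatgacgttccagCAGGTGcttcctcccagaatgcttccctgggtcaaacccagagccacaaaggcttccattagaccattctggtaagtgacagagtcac
Igll1, chr16:16863986-16864235, minus strand: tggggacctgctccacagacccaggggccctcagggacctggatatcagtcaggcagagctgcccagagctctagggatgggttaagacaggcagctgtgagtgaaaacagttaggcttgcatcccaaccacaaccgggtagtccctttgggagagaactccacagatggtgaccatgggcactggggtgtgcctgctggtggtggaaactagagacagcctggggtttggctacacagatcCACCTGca
Rag1, chr2:101649533-101649782, minus strand: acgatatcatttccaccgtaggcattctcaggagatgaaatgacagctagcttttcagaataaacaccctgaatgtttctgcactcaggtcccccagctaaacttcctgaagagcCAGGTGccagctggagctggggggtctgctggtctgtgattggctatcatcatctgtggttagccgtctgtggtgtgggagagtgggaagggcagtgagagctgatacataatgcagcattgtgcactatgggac

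Windows of 250 bases before to 50 bases after the start site were found for 8 members (9 windows, none for Cd93), and 4 motifs were searched on both strands. The E box CAGGTG lay in 4 of the 9 windows, those of Rag1, Vpreb1, Vpreb2 and Igll1, at 135, 88, 232 and 8 bases before the start site. The matches of Vpreb1 and Vpreb2 lie in a near-identical stretch of both windows, so they are not separate matches. Rag2 and Dntt, also highest in joint nonmigrated cells, had no match. It lay in 20.2% of all 32851 windows in the RefSeq table. The palindromic EBF1 motif was in 0 of the 9 windows and in 0.904% of all. TGTGGT, the RUNX motif, was in 4 windows (16.8% of all), and TGGGAA, the Ikaros motif, was in 3 (25.6% of all). These are matches of letters only.

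The recombinase genes Rag1 and Rag2 lie next to each other on chromosome 2 (chr2:101638282-101649501, minus strand, and chr2:101624718-101632529, plus strand), and their products cut DNA as a complex. Levels are CPM, the counts of a gene relative to all counts of its library, scaled to a common library size by the TMM method. In joint nonmigrated replicates 1 to 3, Rag1 was at 8.59, 4.98 and 46.4 CPM (314, 150 and 1545 counts). It was at 8.72, 5.23 and 4.52 CPM in the joint-draining LN at steady state and at 2.24, 0.556 and 1.68 CPM in the skin-draining LN at steady state. In the inflamed LNs and skin it was all but missing, with 2, 1 and 2 counts in joint migrated, 0, 0 and 1 in skin nonmigrated and 0 in each skin migrated library.

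Rag1 therefore stood high in 3 of the 6 groups, and its order was joint nonmigrated, joint-draining LN and skin-draining LN at steady state, then the 3 others. Joint nonmigrated and the steady-state joint-draining LN overlapped, because replicates 1 and 2 of the former lay within the range of the latter. The 2 steady-state LNs did not overlap each other, and neither overlapped any of the 3 low groups. Ratios are of pooled CPM, the summed counts of a group over its summed TMM-scaled library sizes. For joint nonmigrated over joint migrated cells the ratio was 556, with a fitted log2 fold change of 8.95 (SE 1.10, n = 3 per group). Over skin nonmigrated cells, with 1 count in all, the ratio was 1066 with a 95% exact counting interval of 191 to 42128, which covers counting error only.

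Rag2 kept the same order at lower levels. Joint nonmigrated replicates 1 to 3 held 0.766, 0.731 and 4.39 CPM, the steady-state joint-draining LN 0.756, 0.245 and 0.177 CPM, and the steady-state skin-draining LN 0.0448, 0.232 and 0.0916 CPM. There was 1 count in 1 joint migrated library and none in the 6 skin nonmigrated and skin migrated libraries. Neighbouring groups among the 3 highest overlapped. Pooled Rag2 CPM was higher at the joint than at the skin by at least 34.7-fold among nonmigrated cells, set against a floor of 3 counts over the 3 libraries. Both genes overlap B230118H07Rik, by 80 exonic bases on the same strand for Rag1 and 208 on the opposite strand for Rag2.

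Dntt (chr19:41029275-41059525, plus strand) encodes terminal transferase, which adds untemplated bases at the joins. Joint nonmigrated replicates 1 to 3 were at 8.48, 9.93 and 28.9 CPM and lay above every other library. The skin-draining LN at steady state held 6.52, 5.88 and 7.73 CPM and the joint-draining LN 6.34, 3.98 and 5.81 CPM, so that these overlapped. Unlike Rag1, Dntt was also found in most libraries of the 3 other inflamed groups. It was at 1.89, 2.10 and 2.55 CPM in joint migrated, 0.120, 1.93 and 2.44 CPM in skin nonmigrated and 0.0466, 0.799 and 1.11 CPM in skin migrated cells. The log2 fold change of joint nonmigrated over joint migrated cells was 2.85 (SE 0.782).

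The surrogate light chain is built from the products of Vpreb1 or Vpreb2 with that of Igll1 (lambda5), and Igll1 sits beside Vpreb1 (chr16:16860671-16863985, minus strand). Vpreb1 was at 2.71, 1.86 and 10.2 CPM in joint nonmigrated replicates 1 to 3. The steady-state joint-draining LN held 1.13, 0.466 and 0.688 CPM, below all 3 of these. Every other library held between 0 and 4 counts of Vpreb1. In the order of group means, skin migrated cells came next at 0.186, 0.200 and 0.177 CPM, which is 4 counts in each library. Vpreb1 overlaps Top3b on the opposite strand by 108 exonic bases.

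Igll1 was at 5.28, 2.92 and 18.5 CPM in joint nonmigrated cells, against 1.87, 0.687 and 0.665 CPM in the steady-state joint-draining LN, with no overlap. The steady-state skin-draining LN held 0.224, 0.116 and 0.122 CPM. In the 3 remaining groups 4 of the 9 libraries had any Igll1 count, the highest being 6 counts in skin migrated replicate 2. Pooled Igll1 CPM was 310-fold higher in joint nonmigrated than in joint migrated cells (log2 fold change 8.08, SE 1.11).

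Vpreb2 was the rarest member. It had 13, 7 and 31 counts in joint nonmigrated and 10, 2 and 3 counts in the steady-state joint-draining LN, and 0 counts in each of the other 12 libraries. Pooled Vpreb2 CPM was higher in joint nonmigrated cells by at least 23.5-fold over joint migrated cells, against the same floor. Over the skin nonmigrated group it was higher by at least 9.02-fold. It did not pass the filter on low counts, so 8 of the 9 members have fitted fold changes, and the surrogate light chain genes are represented in those by Vpreb1 and Igll1.

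**Figure D1:**
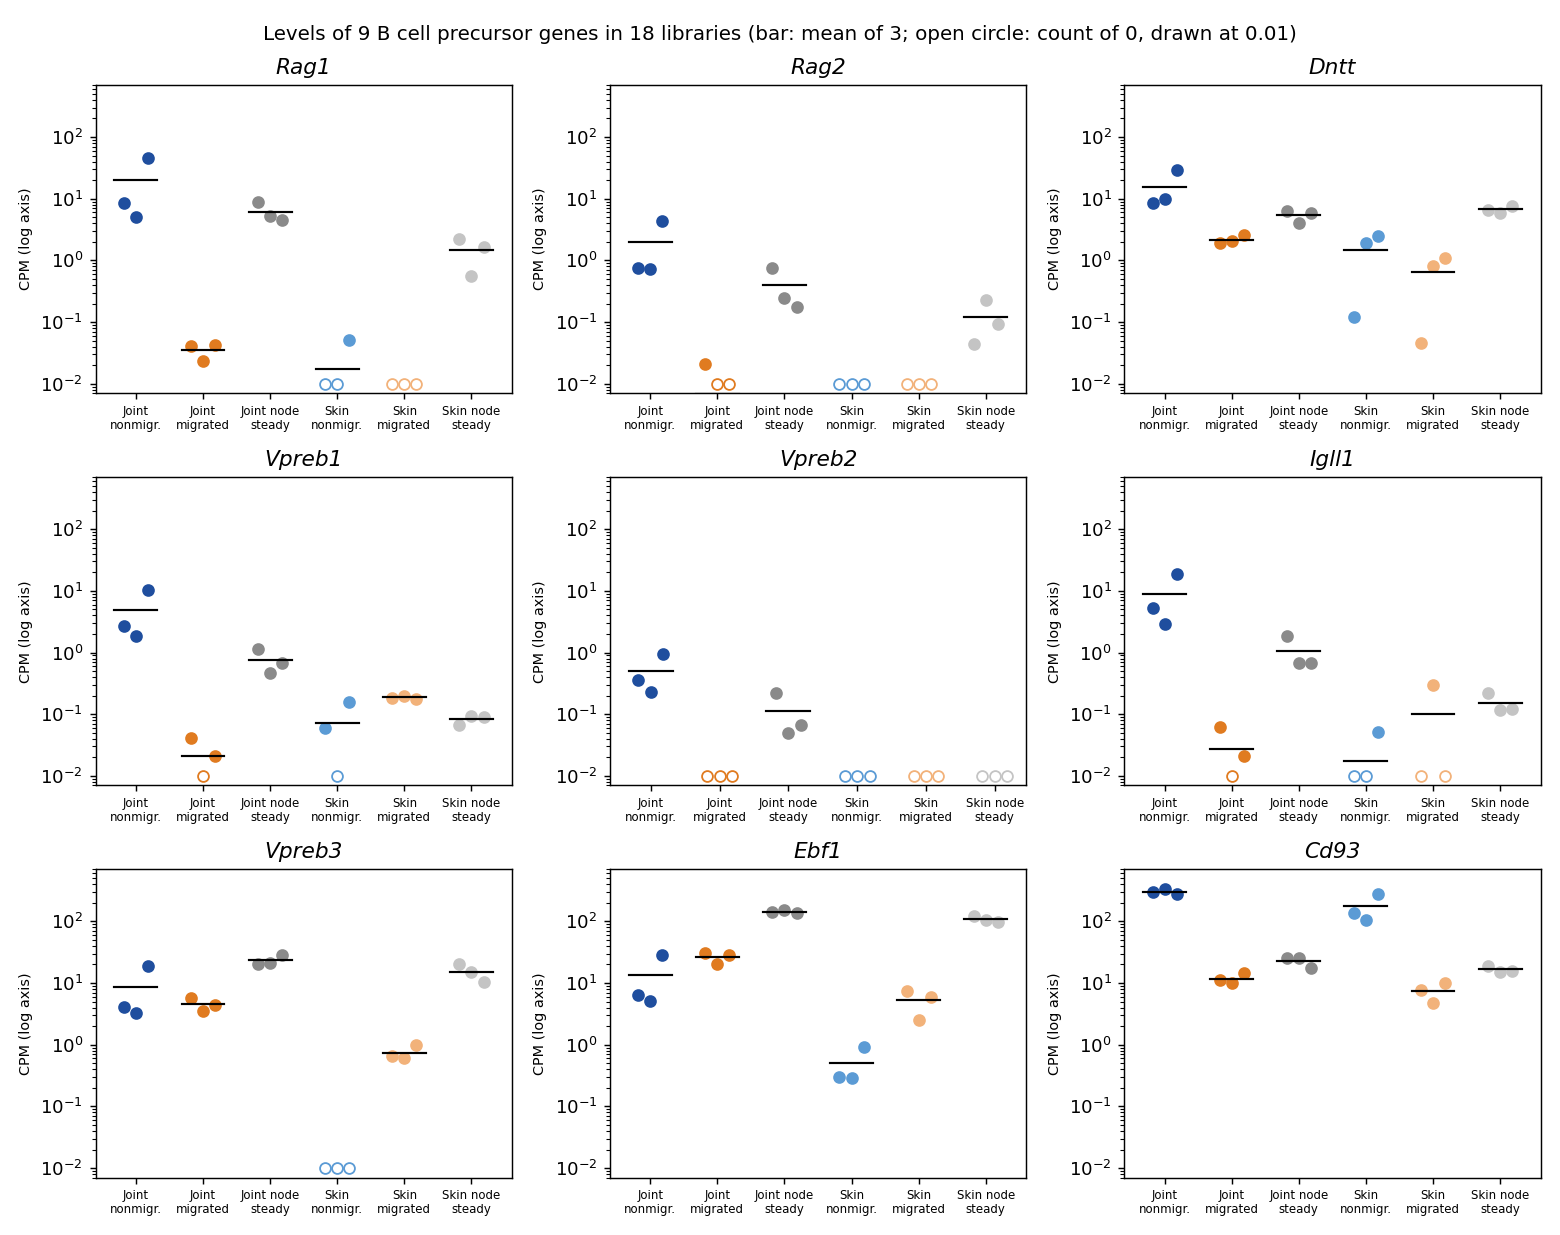
Level of each of the 9 genes in the 18 libraries (y axis, CPM on a log axis) by group (x axis, 3 libraries each); points are libraries in replicate order, bars are group means, and open circles at 0.01 are libraries with a count of 0. Rag1, Rag2, Dntt, Vpreb1, Vpreb2 and Igll1 were highest in joint nonmigrated cells, Vpreb3 and Ebf1 in the steady-state LNs, and Cd93 in the nonmigrated cells of both sites.

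Vpreb3 and Ebf1 followed another order, led by the LNs. Vpreb3 (chr10:75943057-75949657, plus strand) encodes a relative of the VpreB proteins that binds immunoglobulin chains in developing and some mature B cells. It was at 20.7, 21.4 and 28.3 CPM in the joint-draining and 20.05, 15.4 and 10.6 CPM in the skin-draining LN at steady state. Joint nonmigrated cells held 4.13, 3.25 and 18.7 CPM and joint migrated cells 5.66, 3.53 and 4.48 CPM, so these groups overlapped. Skin migrated cells held 0.652, 0.599 and 0.975 CPM, and Vpreb3 had no count in skin nonmigrated cells, over which joint nonmigrated cells were at least 154-fold higher.

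Ebf1 (chr11:44617317-45008091, plus strand) stays on in mature B cells. Its levels were 142, 152 and 134 CPM in the joint-draining and 121, 106 and 97.1 CPM in the skin-draining LN at steady state. Joint migrated cells held 31.3, 20.3 and 28.4 CPM and overlapped joint nonmigrated cells at 6.37, 5.05 and 29.0 CPM. Skin migrated cells held 7.49, 2.55 and 5.94 CPM, and skin nonmigrated cells held 0.30, 0.292 and 0.935 CPM, below every other library. The log2 fold change of joint nonmigrated over joint migrated cells was -0.99 (SE 0.599) for Ebf1 and 0.93 (SE 0.588) for Vpreb3. Joint nonmigrated replicate 3 decided both. Without it, the value for Ebf1 was -2.22 (SE 0.470), past the call threshold, and that for Vpreb3 was -0.30 (SE 0.323), with the sign turned.

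Cd93 (chr2:148436640-148443563, minus strand) encodes a surface glycoprotein that marks early B cells and is also made by monocytes, macrophages and endothelium. It was at 298, 340 and 276 CPM in joint nonmigrated cells, 138, 105 and 281 CPM in skin nonmigrated cells, and 4.74 to 25.9 CPM in the 12 LN libraries. The nonmigrated groups of both sites overlapped each other and no LN library. The log2 fold change of nonmigrated over migrated cells was 4.68 (SE 0.384) at the joint and 4.53 (SE 0.387) at the skin. Beside this, 8 of 9 genes of a list for monocytes, macrophages and neutrophils were called higher in nonmigrated cells at each site, with a median log2 fold change of 6.96 at the joint and 6.55 at the skin. Over all genes, 18.4% were called higher and 16.0% lower at the joint, and 19.7% higher and 15.7% lower at the skin. Of a list of 9 endothelial genes, 5 were called higher and 1 lower at the joint and 7 higher and 1 lower at the skin. The part of these cells in the Cd93 level was not tested. Per kilobase of exon, Cd93 was the most abundant member in joint nonmigrated cells, with a mean of 45.6 CPM per kb. Vpreb3 came next at 10.1, followed by Dntt at 6.89, Igll1 at 4.12, Vpreb1 at 4.11, Rag1 at 3.03, Ebf1 at 1.38, Vpreb2 at 0.667 and Rag2 at 0.573 CPM per kb.

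For the counts of calls, a gene was called when edgeR's quasi-likelihood test gave a p under 0.05 after Benjamini-Hochberg adjustment and its absolute log2 fold change exceeded 1. Of the 8 members tested between joint nonmigrated and joint migrated cells, 6 were called higher in nonmigrated cells (all but Vpreb3 and Ebf1) and 0 lower. Of all 16777 genes tested 18.4% were called higher and 16.0% lower. Between joint and skin nonmigrated cells, 7 members were called higher at the joint (all but Cd93, log2 fold change 0.80, SE 0.330), where 5.45% of all genes were called higher and 8.86% lower. Without skin nonmigrated replicate 3, Cd93 was called as well, at 1.32. These shares stand beside counts of genes that were picked for their levels, and nothing further is read from them.

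Within the skin, 1 member was called higher in nonmigrated than migrated cells (Cd93) and 2 were called lower. These were Ebf1, with a log2 fold change of -3.34 (SE 0.791), and Vpreb3, at least 13.2-fold higher in migrated cells. Of all genes 19.7% were called higher and 15.7% lower. Between joint migrated and skin migrated cells 0 members were called, with 0.560% of all genes called higher and 0.578% lower. Vpreb3 and Ebf1 nonetheless did not overlap there, with ratios of pooled CPM of 6.14 and 4.98. DESeq2, no filter on low counts, all 18 libraries together and a fit of those 2 groups alone each called both. Over all genes, 2770 had an unadjusted p under 0.05 in that comparison.

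Against the steady-state LN, 7 members were called lower in joint migrated cells (all but Cd93), where 7.31% of the 17107 genes tested were called lower and 16.9% higher. Rag1 showed the widest gap, a ratio of 171 (log2 fold change -7.25, SE 0.645). Ebf1 and Vpreb3 were lower by similar amounts, -2.39 (SE 0.243) and -2.33 (SE 0.243) on the log2 scale. In skin migrated cells 6 members were called lower than in the steady-state skin-draining LN (Rag1, Rag2, Dntt, Vpreb3, Ebf1 and Cd93), where 15.0% of all genes were called lower and 21.5% higher. Rag1 was at least 31.7-fold lower there, and Rag2, with 15 counts against 0, at least 2.66-fold lower. The calls of Dntt at the joint and Rag2 at the skin were near the threshold, since each was lost in some alternatives: Dntt without joint migrated replicate 2 or steady-state replicate 1 or 3, and Rag2 without any 1 skin migrated library or steady-state skin replicate 2, and both in a fit of all 18 libraries. Cd93 at the skin was lost without skin migrated replicate 2, and Igll1 was called without it, at -5.64, since that library held all 6 of the group's counts. At the joint, Cd93 was called without joint migrated replicate 3 or steady-state replicate 3.

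**Figure D2:**
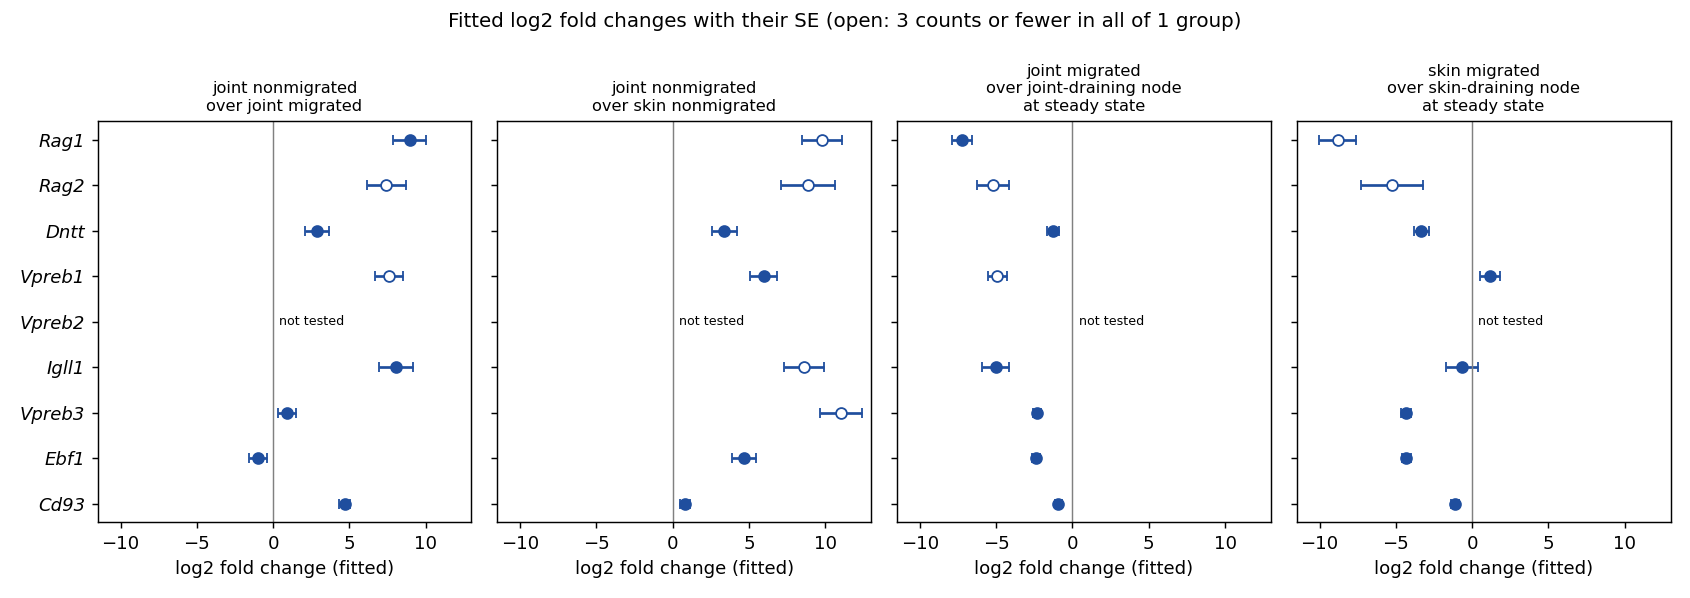
Fitted log2 fold change with its SE (x axis) of each gene (y axis) in 4 comparisons; open points are fits in which 1 group held 3 counts or fewer in all and whose size depends on the small count added in fitting. Against skin nonmigrated cells all fitted genes but Cd93 lie above 1, and against the steady-state LN the migrated cells lie below 0 for all but Vpreb1 at the skin.

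Joint nonmigrated replicate 3 stood apart from the other 2 replicates for 8 of the 9 genes. It exceeded replicate 1 by 5.41-fold for Rag1, 5.73-fold for Rag2, 4.55-fold for Ebf1, 4.52-fold for Vpreb3, 3.77-fold for Vpreb1, 3.51-fold for Igll1, 3.41-fold for Dntt and 2.62-fold for Vpreb2. Cd93 went the other way, with a ratio of 0.927. For other B cell genes the ratios were 2.50 for Cd79a, 1.79 for Cd79b and 1.33 for Ighm. Of 14 mature B cell genes, 13 were also higher in replicate 3 than in replicate 1, the exception being Ciita at a ratio of 0.525, and the highest ratio was 2.60, for Bank1. Their sum of 609, 625 and 603 CPM in replicates 1 to 3 was carried by Ciita and Cd37, which other leukocytes also make. Without those 2 genes, left out after their values were seen, the sum was 120, 142 and 200.1 CPM. The part of mature B cells in the members' levels was not tested.

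Leaving out that pool lowered the fold changes of most members. Without joint nonmigrated replicate 3, the log2 fold change over joint migrated cells was 7.40 (SE 0.553) for Rag1, 6.96 (SE 1.01) for Igll1, 6.47 (SE 0.714) for Vpreb1 and 2.08 (SE 0.800) for Dntt, each still called. Vpreb3 and Ebf1 were not higher there, as given above. The log2 fold changes over skin nonmigrated cells were 8.21 (SE 0.676) for Rag1, 4.86 (SE 0.706) for Vpreb1 and 3.45 (SE 0.525) for Ebf1, and that of Cd93 was 0.87 (SE 0.377), not called.

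Summed lists of other cells also differed among the 3 joint nonmigrated pools. Immature granulocyte genes, a list of 11 that are made in bone marrow such as Elane and Mpo, summed to 4463, 9322 and 14983 CPM, and stromal and adipocyte genes (a list of 9) to 98.1, 119 and 276 CPM. Within the granulocyte list, Mpo, Elane, Prtn3 and Ctsg were highest in replicate 2 and the rest in replicate 3, so the sum does not stand for each gene. From replicate 1 to replicate 2, Dntt and Cd93 were higher and the other 7 members lower. Stem and progenitor genes and erythroid precursor genes are in the same plot. Their part in the members' levels was not tested.

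**Figure D3:**
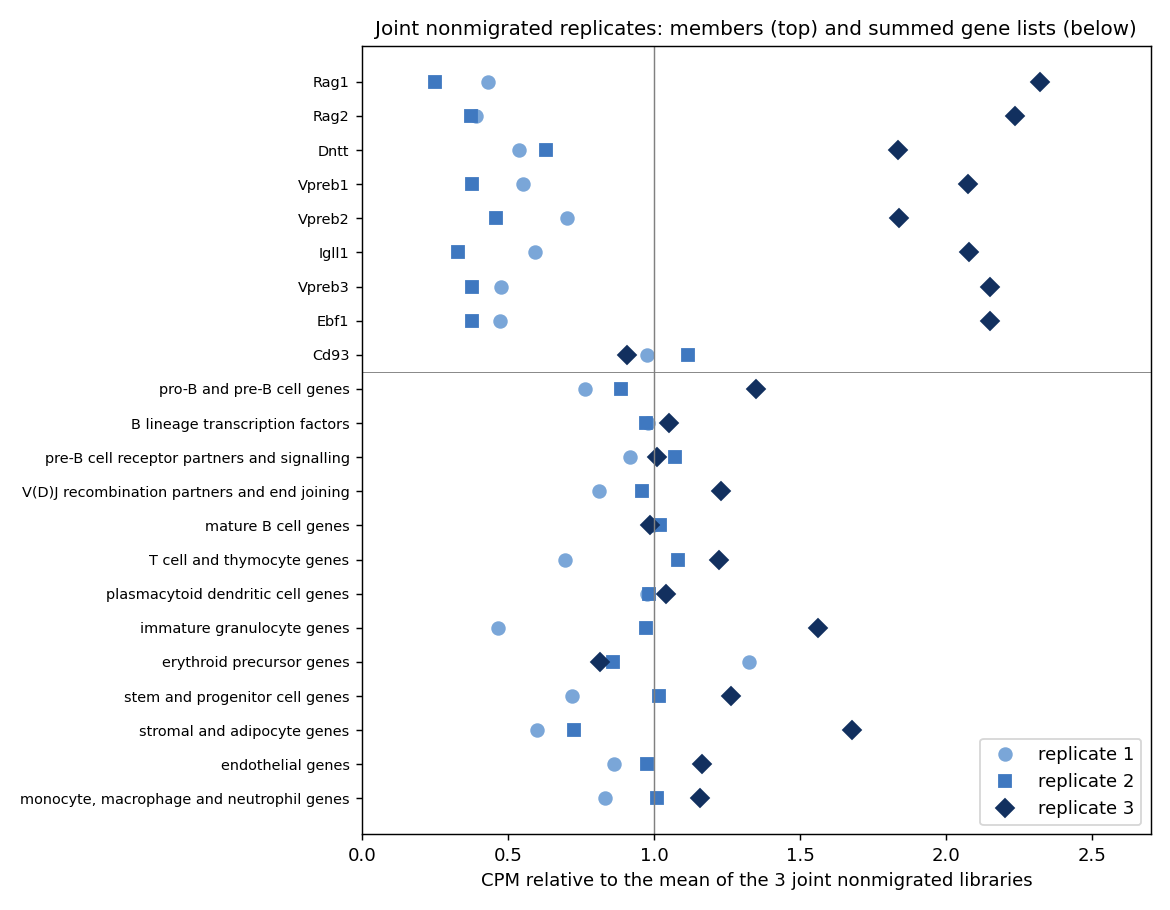
Level in each joint nonmigrated library relative to the mean of the 3 (x axis) for the 9 genes above the line and for the summed CPM of 13 gene lists below it (y axis). Replicate 3 lies above replicates 1 and 2 for 8 genes and below both for Cd93, and the flat sum of the mature B cell list is carried by Ciita and Cd37.

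B cell transcripts were far more abundant in the LNs than in the joint, so the members were also set against Cd79a, which encodes a signalling chain of the B cell receptor and is made from the pro-B stage on. Cd79a was at 28.7, 32.4 and 71.5 CPM in joint nonmigrated cells and at 1089.7, 1099 and 1386 CPM in the steady-state joint-draining LN. Per 1000 Cd79a counts, joint nonmigrated replicates 1 to 3 held 300, 154 and 649 Rag1 counts. The steady-state joint-draining LN held 8.0, 4.76 and 3.26, and the 9 other LN libraries held 2.50 or fewer. The overlap of joint nonmigrated cells with that LN in Rag1 CPM was thus absent on this scale.

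Vpreb3 was nearly constant per Cd79a in LNs, between 13.8 and 20.9 counts per 1000 in all 12 LN libraries, although its CPM there ran from 0.599 to 28.3. Joint nonmigrated cells held 144, 101 and 261. Ebf1 ran from 77.3 to 158 per 1000 Cd79a counts in the LN libraries and was at 222, 156 and 405 in joint nonmigrated cells, so replicate 2 lay within the LN range. Igll1 was at 184, 90.3 and 259 in joint nonmigrated cells and at 9.09 or fewer in LNs. Skin nonmigrated libraries held 9, 17 and 35 Cd79a counts, too few for this ratio. Cd79a is itself made at different levels along the lineage, so these ratios are not counts of cells.

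**Figure D4:**
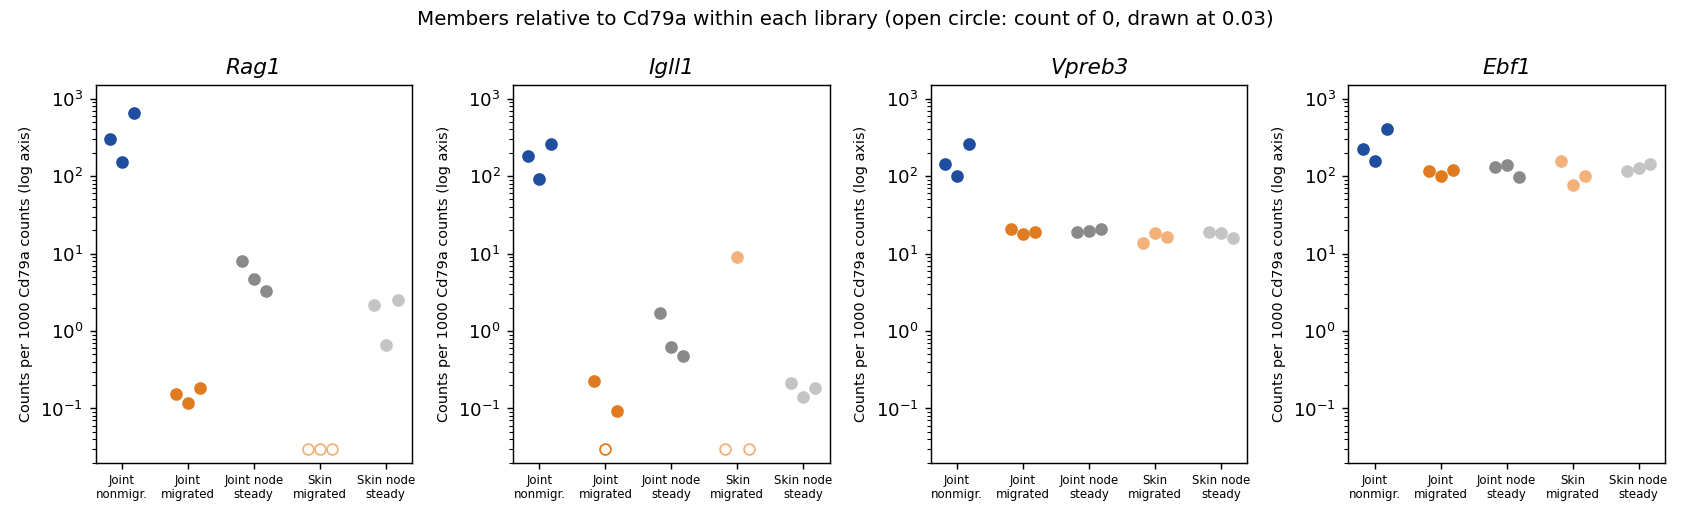
Counts of 4 members per 1000 Cd79a counts of the same library (y axis, log axis) in 5 groups of 3 libraries (x axis); skin nonmigrated libraries are left out for their few Cd79a counts, and open circles at 0.03 are counts of 0. Vpreb3 lies between 13.8 and 20.9 in the 12 LN libraries and at 101 or more in the 3 joint nonmigrated libraries.

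Other genes of the pathway were taken from lists, with the members left out, and were counted in joint over skin nonmigrated cells. There the median log2 fold change of all genes was 0.01, with 5.45% of them called higher and 8.86% lower. Of the 12 partners and signalling genes of the pre-B cell receptor, 7 were called higher and 1 lower (median 1.17). Among them were Cd79a (log2 fold change 5.27, SE 0.473) and Ighm, the mu heavy chain (2.68, SE 0.373). Of 15 B lineage transcription factors 5 were called higher and 0 lower (median 0.35). Pax5, which keeps B cell identity, had a log2 fold change of 7.50 (SE 0.722, edgeR adjusted p = 7.96e-05), and Pou2af1 one of 4.64 (SE 0.485).

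Of the 13 tested pro-B and pre-B cell genes, 4 were called higher and 2 lower (median 0.23). Cplx2 and Bcl7a were higher, with log2 fold changes of 4.80 (SE 0.726) and 2.83 (SE 0.530), as was Myb, a progenitor transcription factor, with 2.37 (SE 0.447). Il7r, which encodes the receptor for the growth factor of B cell precursors and is also made by T cells, was lower, at -2.69 (SE 0.202), with 79.3, 83.8 and 111 CPM at the joint and 723, 440 and 609 CPM at the skin. The recombinase's partners and end joining factors, 13 genes that many cells use, had 0 calls in either direction (median 0.25). The largest fold change of these was that of Xrcc6, 0.99 on the log2 scale (SE 0.265), and 4 of the 13 had an adjusted p under 0.05 by edgeR with a change below the fold threshold.

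Mature B cell genes were in the joint as well, with 7 of 14 called higher and 1 lower than in skin nonmigrated cells (median 1.29), among them Ms4a1 at 9.24, 8.80 and 15.7 CPM against 0.240, 1.05 and 0.624 CPM. The same list had 0 genes called higher and 11 lower in joint nonmigrated than in joint migrated cells (median -3.26, against -0.02 for all genes). Over all genes 18.4% were called higher and 16.0% lower there. In that comparison Rag1, Rag2, Vpreb1, Igll1 and Dntt thus lay on the other side from mature B cell genes.

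Lists of other cells that make some of the members were read beside them in joint over skin nonmigrated cells. Thymocytes also use Rag1, Rag2 and Dntt. Of 11 tested T cell and thymocyte genes 0 were called higher and 9 lower (median -1.23), with summed levels of 299, 466 and 526 CPM at the joint and 462 to 1294 CPM at the skin. Ptcra, also on that list, was too low to be tested. The tested genes are made by mature T cells as well, so they cannot tell thymocytes from T cells. Of 9 plasmacytoid dendritic cell genes 1 was called higher and 1 lower, with sums of 254 to 271 CPM at the joint and 269 to 284 CPM at the skin. Immature granulocyte genes had 10 of 11 called higher and 0 lower (median 7.74), and their sums at the skin were 709, 210 and 215 CPM. Most of each skin sum was Chil3, the gene not called, at 669, 146 and 184 CPM. Elane, for one, was at 30.7, 158 and 147 CPM at the joint.

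Of the remaining lists in that comparison, erythroid precursor genes had 2 of 9 tested genes called higher and 0 lower, and stem and progenitor genes 3 of 8 higher and 3 lower. Stromal and adipocyte genes had 1 of 8 higher and 0 lower, endothelial genes 0 of 9 higher and 2 lower, and the monocyte, macrophage and neutrophil list 1 of 9 higher and 0 lower. Counts of 0 or 1 are near the shares over all genes, 5.45% higher and 8.86% lower, and nothing is read from them. Immature granulocyte genes and Rag1, Vpreb1 and Igll1 were thus all highest in the joint nonmigrated group. In the steady-state joint-draining LN, where Rag1 was also above 4 CPM, immature granulocyte genes summed to 243, 323 and 365 CPM. The steady-state skin-draining LN had sums of 3.30 to 5.56 CPM, with Rag1 at 0.556 to 2.24 CPM. Joint migrated cells, with 5 Rag1 counts in all, had sums of 21.1 to 32.4 CPM. Skin nonmigrated cells, with 1 Rag1 count in all, had sums of 709, 210 and 215 CPM, mostly Chil3. These group values are set side by side only. The part of the immature granulocyte genes in the members' levels was not tested.

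Likeness of pattern was measured as Pearson's r of log2(CPM + 1) over the 18 libraries among 18156 genes. The libraries fall into groups and for several genes the value rests mainly on the joint nonmigrated pools, so r describes these libraries only. Among the members, Vpreb1 and Igll1 were the closest pair (r = 0.991), followed by Vpreb1 and Vpreb2 (0.989). Vpreb3 and Ebf1 were close (0.946), while Ebf1 had 0.0854 with Vpreb1 and -0.42 with Cd93. The 9 genes therefore did not share a single pattern.

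The gene most like Rag1 was Cplx2 (r = 0.956), with group means of 13.5 CPM in joint nonmigrated, 3.77 and 2.44 CPM in the joint-draining and skin-draining LN at steady state and 1.22 CPM or less elsewhere. The eosinophil genes Ear1 and Epx were among those most like Vpreb1 (0.940 and 0.935), and the lincRNA Gm33148 was most like Igll1 (0.937). Ear1 was also most like Rag2 (0.937) and Vpreb2 (0.948). Hes1, a Notch target, was most like Vpreb3 (0.963). For Ebf1, the B cell genes Cd79b, Fcrla and Pax5 were among the first 5 (0.982, 0.982 and 0.978), and for Cd93 the first was Ano6 (0.989).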

How the data were processed

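Libraries were made from sorted cells, pooled over mice in the inflamed groups, and paired reads of 100 bases were sequenced. Per the study's methods the authors trimmed reads with Trim Galore, aligned them with TopHat2 to mm10 with Ensembl gene models and counted them with HTSeq under default settings, and the deposited values are these raw counts per gene. The strandedness of the kit and its counting were not given in the sources used here, so reads of overlapping genes on opposite strands may not be told apart. Reads that align to several places are left out by this counting. HTSeq summary rows were removed, and of each library's table total 9.24% to 12.7% were alignments that were not unique and 1.84% to 2.37% were ambiguous. Total assigned counts ran from 19239531 to 43814403 per library, and intervals and floors cover counting error only. Inflamed skin libraries held 19239531 to 22528895 counts and inflamed joint libraries 35554698 to 43814403. Depth thus coincides with site in comparisons of inflamed joint with skin, and low counts are more easily missed at the skin. Symbols and positions came from GENCODE release M21, matched for 49326 of 49585 rows, and promoters from RefSeq (GRCm38.p6).

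Counts were analysed with edgeR 4.0.16 in R 4.3.3 (TMM, filterByExpr with a minimum count of 10, quasi-likelihood F test, Benjamini-Hochberg adjustment, group as the factor). The 12 inflamed libraries were fitted together, as were the 12 LN libraries. The SE was taken from each log2 fold change and its F statistic (size of the former over the root of the latter). A group at 0 was set to a floor of 3 counts over its 3 libraries, and ratios with 1 to 3 counts carry a 95% exact binomial interval. The groups follow the sample labels. Replicates are separate pools in the inflamed groups. Nothing says that the steady-state replicates came from separate mice, so p values there measure only the spread between libraries, which may be technical.

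The 9 members and the 13 gene lists were chosen with earlier results of these data known. Named genes are the members, from each list the 4 tested genes with the largest absolute change in joint over skin nonmigrated cells (not all are printed, and some items are not reported here), and for each member the 5 most alike genes. Immature granulocyte sums use the whole list. Alternatives were DESeq2 1.42.0 and its size factors, no filter, 10 counts in every library of a group, a replicate block, other sets of libraries, an adjusted p under 0.001, and leaving out each library. The code was tested on simulated counts.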

Additional observations from a re-analysis of the deposited data

Results flagged for a closer look

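Vpreb1 moved in opposite directions at the joint and the skin between nonmigrated and migrated cells, with groups that did not overlap at either site. At the joint the nonmigrated libraries were higher, whereas at the skin the mean of nonmigrated libraries was 0.0720 CPM and lay below the migrated mean of 0.188 CPM. The difference between the sites was not tested, and the skin values rest on 4 counts over 3 nonmigrated libraries and 12 over 3 migrated libraries.

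Vpreb1 also moved in opposite directions between migrated cells and the steady-state LN. It was lower in joint migrated cells than in the joint-draining LN, while skin migrated cells, with a mean of 0.188 CPM, lay above the skin-draining LN, with a mean of 0.0838 CPM. This difference was not tested either, and the skin-draining LN held 10 counts in all. Vpreb1 overlaps Top3b on the opposite strand, and the part of Top3b reads in these counts was not tested.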

How the results depend on the processing

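At an adjusted p under 0.001, the genes called fell to 3586 between joint nonmigrated and joint migrated cells, 511 between joint and skin nonmigrated cells (3 members), 3508 between skin nonmigrated and migrated cells (1 member), 0 between joint and skin migrated cells and 2714 between joint migrated cells and the steady-state LN. Between joint and skin migrated cells, where 191 genes and 0 members were called, DESeq2 gave 465 genes, no filter 327 and all 18 libraries 407, with 2 members each (Vpreb3 and Ebf1), and a fit of only those 2 groups also gave 2 members. The cause was not tested. No called member changed sign. Replicate numbers were not treated as pairs, and the sources used here do not say whether same-numbered tissue and LN pools shared mice. Deviations of same-numbered libraries correlated at -0.25 to 0.19 across genes. Between nonmigrated and migrated cells of a site the values were 0.014 to 0.19. Such weak correlations between unlike cells cannot settle whether pools shared mice. With the replicate block, the counts for the 6 comparisons were 5747, 2405, 5834, 138, 3836 and 5953 genes and 7, 7, 4, 1, 7 and 6 members. The block added Ebf1 (joint nonmigrated over joint migrated), Dntt (skin) and Dntt (joint over skin migrated).

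Leaving out 1 library in turn gave 5217 to 5658 genes and 6 to 7 members for joint nonmigrated over joint migrated cells, 1745 to 3720 and 7 to 9 for joint over skin nonmigrated cells, and 5801 to 6186 and 3 to 3 for skin nonmigrated over migrated cells. It gave 58 to 171 and 0 to 0 for joint over skin migrated cells, 3777 to 4234 and 6 to 8 for joint migrated cells over the steady-state LN and 6129 to 6340 and 5 to 6 for the skin equivalent. The 3720 came without skin nonmigrated replicate 3. Without joint migrated replicate 1, 2 or 3 the migrated cells gave 60, 58 and 59 genes, and without skin migrated replicate 1 or 3 they gave 65 and 63. Depth limits Vpreb2, Rag2 and the low groups, where a fold is a bound or rests on a few counts.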

Other observations

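Other genes of these cells are given as values. Ighm stood apart from Cd79a in skin migrated cells. Its level was 4584, 3141 and 4859 CPM there and 2356, 2218 and 2483 CPM in the steady-state joint-draining LN, while Cd79a was at 47.3, 33.0 and 59.3 CPM in skin migrated cells. Adgre1, a macrophage gene, was at 576, 696 and 511 CPM in joint nonmigrated cells and at 84.7, 68.3 and 426 CPM in skin nonmigrated cells, where replicate 3 lay far above the other two. That library also held the highest Cd93 of its group, at 281 CPM.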
